A study of Mus musculus with 20 samples.

Results

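The lysyl oxidases are a family of 5 copper-dependent amine oxidases, Lox, Loxl1, Loxl2, Loxl3 and Loxl4, and all 5 were found by symbol among the 29986 genes of a read count table from mouse tenocytes, the resident fibroblast-like cells of tendon. All 5 were among the 14420 genes that had enough reads to be tested. The 20 libraries were from tail tendon of adult C57Bl/6 mice and were labelled with 100 ng/mL of IGF1, insulin-like growth factor 1, for 1, 2, 6 or 24 h, or with no IGF1 at 0 h, with 4 libraries at each time. Libraries without IGF1 at 1 to 24 h were not analysed here, so IGF1 and time in culture cannot be told apart. Whether replicate libraries had separate animals or cultures behind them is not in the labels, so p-values measure the spread between these libraries, which may be technical. In bulk RNA, fewer cells of a type and less RNA per cell cannot be told apart.

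Lysyl oxidases are secreted enzymes that convert lysine and hydroxylysine side chains of collagens and elastin to reactive aldehydes, which then form the covalent cross-links that give a fibre its strength. Each enzyme carries a copper ion and a quinone cofactor that it builds from a lysine and a tyrosine of its own chain. Lox and Loxl1 are made with a propeptide that is cut off outside the cell, while Loxl2, Loxl3 and Loxl4 carry scavenger receptor cysteine-rich domains before the catalytic domain. In tendon the cross-links made by this family are a main determinant of stiffness.

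The 5 genes are protein-coding, and the identifier of Lox is ENSMUSG00000024529. In mm10, Loxl1 (ENSMUSG00000032334) is at 58287738 to 58313186 on chromosome 9, minus strand, and Loxl2 (ENSMUSG00000034205) is at 69609068 to 69695834 on chromosome 14, plus strand. Loxl3 (ENSMUSG00000000693) is at 83034173 to 83052562 on chromosome 6, plus strand, and Loxl4 (ENSMUSG00000025185) is at 42593982 to 42612813 on chromosome 19, minus strand.

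The stretches below show what makes these genes 1 family and how far their reads can be told apart. Each is the spliced coding sequence, 5′ to 3′ on the strand of the gene, that encodes the part of the active site from the copper-binding histidines (the first 33 bases, in capitals) to just past the lysine of the quinone cofactor (its codon in capitals). They were read from the GENCODE M21 transcripts, and each runs across 1 intron, which is left out.
Loxl1, chr9:58293627-58294381, minus strand, exons 3 and 4 of 7: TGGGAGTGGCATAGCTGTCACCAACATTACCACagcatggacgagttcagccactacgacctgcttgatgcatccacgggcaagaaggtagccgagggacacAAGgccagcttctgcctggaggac
Loxl2, chr14:69682316-69689127, plus strand, exons 10 and 11 of 14: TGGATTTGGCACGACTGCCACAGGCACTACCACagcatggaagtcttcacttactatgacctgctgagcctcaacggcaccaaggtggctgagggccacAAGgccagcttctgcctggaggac
Loxl3, chr6:83049995-83050215, plus strand, exons 10 and 11 of 14: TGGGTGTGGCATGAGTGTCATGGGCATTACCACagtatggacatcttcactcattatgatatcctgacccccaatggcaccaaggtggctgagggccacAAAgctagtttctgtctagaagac
Loxl4, chr19:42598717-42599899, minus strand, exons 11 and 12 of 15: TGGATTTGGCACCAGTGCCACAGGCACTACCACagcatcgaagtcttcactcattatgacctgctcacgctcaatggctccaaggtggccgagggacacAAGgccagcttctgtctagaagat

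Over the 33 bases of the copper-binding segment, Lox and Loxl1 were identical at 97.0% of positions and Loxl2 and Loxl4 at 93.9%, and the lowest identity of any pair was 63.6%. Over the whole stretch, Loxl2 was identical to Loxl4 at 87.0% of bases and to Loxl3 at 79.7%. Even so, the longest run of identical bases shared by any pair of members' transcripts was 32 bases, between Lox and Loxl1, and the shortest of these longest runs was 11 bases, between Lox and Loxl4. No source used here gives the read length.

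The libraries held 13734425 to 22687173 assigned reads, and the lowest count of any member in any library was 528 reads, for Loxl4 in 2 h replicate 4. Values below are CPM, read counts scaled to library size, with sizes adjusted by TMM (the trimmed mean of M values), and each difference is a log2 fold change of the later over the earlier time with its standard error (SE). Calls were made in an edgeR quasi-likelihood fit across all genes, where the adjusted p (Benjamini-Hochberg) had to be under 0.05. All 6 tendon markers were tested, and Scx, Mkx and Tnmd stood at 1736 ± 81.2, 227 ± 12.7 and 202 ± 21.4 CPM at 0 h (SD, n = 4). Of 12 macrophage markers all were detected, and their mean log2 CPM was 4.34, 5.20, 3.75 and 3.88 in 2 h replicates 1 to 4, against 3.10 to 3.28 at 0 h, 2.96 to 4.18 at 1 h, 3.05 to 3.91 at 6 h and 2.47 to 3.54 at 24 h. Of 6 endothelial markers, 4 did not have enough reads in enough libraries to be tested. At 2 h the highest values of these were 7.96 (Pecam1), 9.77 (Cdh5), 3.05 (Emcn) and 2.17 CPM (Cldn5). At the other times none exceeded 0.641 CPM. Of the 2 tested, Tek averaged 38.5 ± 1.52 CPM at 0 h and 8.09 ± 2.19 CPM at 6 h, and Kdr 0.521 and 0.576 CPM. The mean log2 CPM of these 2 was highest in 2 h replicate 2, at 3.21. The mean log2 CPM of 5 Schwann cell markers was 0.575 to 2.46 at 2 h and 1.21 to 1.66 at 24 h, against 0.575 to 1.18 at 0 h. In addition, 2 h replicate 4 stood apart from the other 2 h libraries in its counts over all genes (chi-square per degree of freedom 38.8, 41.5 and 52.5, against 8.67 to 29.9 among the other 3). Results at 2 h are therefore given also without 2 h replicates 1 and 2, or without replicate 4, where that changes them.

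The 5 genes did not move together. Lox, by far the most abundant, fell at 2, 6 and 24 h and at 24 h stood at 0.559 of its 0 h level. Loxl2, which acts on fibrillar and basement membrane collagens, rose at 6 h and stayed higher at 24 h, by 1.45-fold and 1.36-fold over 0 h. Loxl3 was lower at 2 and 6 h by less than the change of Lox at 24 h, while Loxl1 and Loxl4 passed the threshold at no time against 0 h.

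At 1 h against 0 h, 0 of 5 members were called by edgeR or by DESeq2, and 0 had an unadjusted p under 0.05 with either, where 6.75% of all tested genes were called higher and 3.88% lower. At 2 h, 2 of 5 members were called lower and none higher, where 17.5% of all genes were called lower and 20.2% higher. At 6 h, 1 member was called higher, where 20.6% of all genes were, and 2 were called lower, where 19.6% were. At 24 h, 1 member was called higher and 1 lower, where 12.7% of all genes were called higher and 13.2% lower. In the test for a change at any time, 4 of 5 members were called, all but Loxl4, where 63.7% of all genes were called. The median log2 change of the members against 0 h was -0.01, -0.19, -0.12 and -0.10 for the treated times in order, beside medians of all tested genes within 0.01 of 0 at each time.

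**Figure D1:**
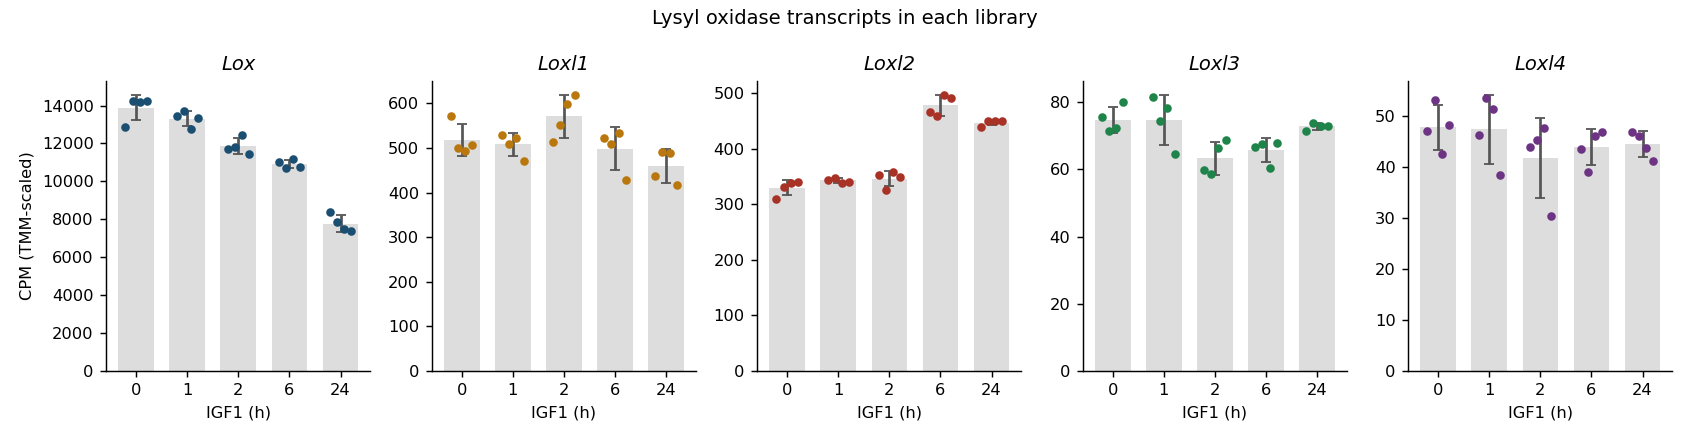
CPM of each of the 5 lysyl oxidases (vertical axes, linear, a panel for each gene) at 0, 1, 2, 6 and 24 h of IGF1 (horizontal axis), with 1 point per library and the mean with its SD over 4 libraries. The 4 Lox values at 24 h, 7359 to 8382 CPM, sit below all others of that gene, and the 8 Loxl2 values at 6 and 24 h sit above the 12 earlier ones.

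Lox encodes the founding enzyme of the family, whose loss in mice weakens vessels and connective tissue. It was measured at 12882, 14269.7, 14189.5 and 14234 CPM in replicates 1 to 4 at 0 h and at 13477, 13690.1, 12742 and 13354 CPM at 1 h. It stood at 11716, 11817, 12455 and 11444 CPM at 2 h and at 11003, 10697, 11157 and 10761 CPM at 6 h. At 24 h the values were 8382, 7859.8, 7468 and 7359 CPM. The values at 2, 6 and 24 h did not overlap with those at 0 h, while those at 1 h did.

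The mean of Lox was 7767 ± 463 CPM at 24 h, against 13894 ± 675 CPM at 0 h (SD, n = 4 each). The log2 change against 0 h was -0.06 ± 0.055 at 1 h (SE, edgeR adjusted p = 0.576), with a 95% interval of -0.17 to 0.05. It was -0.23 ± 0.055 at 2 h (adjusted p = 0.00161), -0.35 ± 0.055 at 6 h (adjusted p = 8.77e-06) and -0.84 ± 0.055 at 24 h (adjusted p = 3.97e-12). All 3 of these calls were kept in each of the fits that left out 1 of the 20 libraries. When the level of the macrophage markers entered the fit, the change of Lox at 2 h was -0.18 (adjusted p = 0.0531), and the part of those cells in it was not tested beyond that fit. In the same fit 3219 of the 14420 genes were called at 2 h, against 5443 without the term.

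Between successive times, 2 of 5 members were called at 2 h against 1 h, where 16.3% of all genes were called, 1 of 5 at 6 h against 2 h, where 27.4% were, and 1 of 5 at 24 h against 6 h, where 35.8% were. For Lox the largest of the 3 steps was the last one, with a log2 change of -0.49 ± 0.055 (SE) at 24 h against 6 h (edgeR adjusted p = 5.82e-08). The step at 2 h against 1 h was -0.17 ± 0.055 (adjusted p = 0.0356), and this call was lost in 14 of the 20 fits that left out 1 library, with adjusted p up to 0.113. The step at 6 h against 2 h was -0.12 ± 0.055 and was not called (adjusted p = 0.102), although the libraries of the 2 times did not overlap.

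Lox ranked between 4 and 7 of all genes by read count in every one of the 20 libraries. It took 0.774 to 0.875% of all assigned reads at 24 h, against 1.25 to 1.39% at 0 h. The 5 members together took 0.877 to 0.979% of reads at 24 h, against 1.34 to 1.48% at 0 h. Of the 6 tendon markers, Thbs4, Fmod and Mkx were lower at 24 h than at 0 h with no overlap. Scx, Tnmd and Col1a1 overlapped between these times. Thbs4 averaged 7645 ± 327 CPM at 24 h, against 12531 ± 518 CPM at 0 h, and Fmod 1467 ± 91.1 CPM, against 2258 ± 187 CPM (SD, n = 4 each). Mkx averaged 198 ± 8.86 CPM at 24 h, against 227 ± 12.7 CPM at 0 h. Scx stood at 1577 ± 105 CPM at 24 h, against 1736 ± 81.2 CPM at 0 h, after means of 4136 and 4354 CPM at 1 and 2 h. The mean log2 CPM of the 6 markers was 10.63 to 10.79 at 24 h, against 10.88 to 11.04 at 0 h, with no overlap, and the Schwann cell markers given above stood higher at 24 h than at 0 h, also with no overlap. The part of either in the changes of Lox and Loxl2 at 24 h was not tested. Of the members' reads, Lox made up 88.3 ± 0.747% at 24 h, against 93.5 ± 0.462% at 0 h (SD, n = 4 each).

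Loxl2 encodes an enzyme of the branch with scavenger receptor domains and is known for the cross-linking of collagen IV as well as of fibrillar collagens. It stood at 309.5, 331, 338 and 339.9 CPM at 0 h, at 344, 347, 339 and 340.4 CPM at 1 h, and at 352, 326, 357 and 349 CPM at 2 h. It stood at 466, 458, 496 and 492 CPM at 6 h and at 439, 449.7, 449.6 and 449 CPM at 24 h. Every value at 6 and 24 h was above every value at 0, 1 and 2 h, and among the first 3 times the values overlapped.

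The mean of Loxl2 was 478 ± 18.8 CPM at 6 h and 447 ± 4.97 CPM at 24 h, against 329.6 ± 13.9 CPM at 0 h (SD, n = 4 each). The log2 change against 0 h was 0.54 ± 0.051 at 6 h (SE, edgeR adjusted p = 2.24e-09) and 0.44 ± 0.051 at 24 h (adjusted p = 1.30e-07), and both calls were kept whichever library was left out. It was 0.06 ± 0.051 at 1 h (adjusted p = 0.584) and 0.07 ± 0.051 at 2 h (adjusted p = 0.290), neither of which was called. The step that was called was 6 h against 2 h, with a log2 change of 0.47 ± 0.051 (adjusted p = 8.47e-08), while the changes at 2 h against 1 h (0.01, adjusted p = 0.882) and at 24 h against 6 h (-0.10, adjusted p = 0.141) were not called. By read count Loxl2 ranked 231 to 261 among all genes at 6 h, against 404 to 467 at 0 h.

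**Figure D2:**
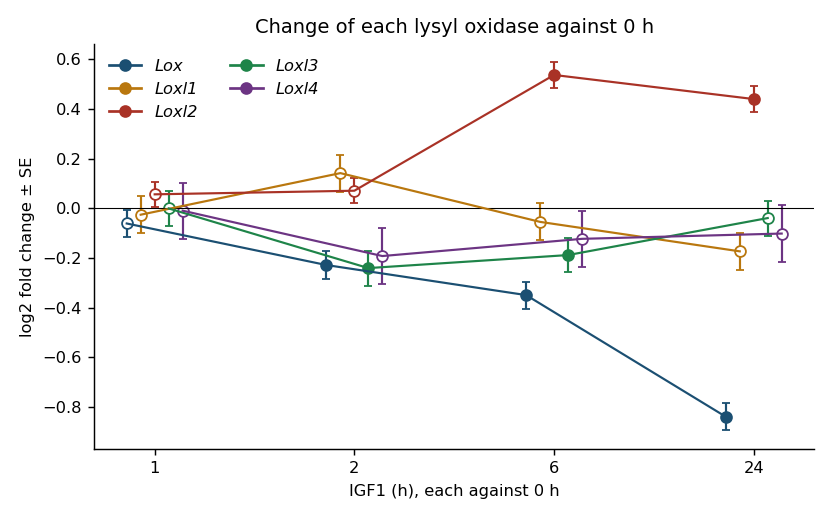
Log2 fold change of each lysyl oxidase against 0 h (vertical axis) at 1, 2, 6 and 24 h of IGF1 (horizontal axis, times equally spaced), with bars for 1 SE on either side. Filled points had an edgeR adjusted p under 0.05 and open points did not, and at 24 h Lox at -0.84 and Loxl2 at 0.44 are the filled ones.

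Loxl1 encodes the member known for its role in elastic fibre upkeep and is the closest relative of Lox. Its values were 571, 499.6, 493 and 506 CPM at 0 h, 529.5, 509.6, 522 and 471 CPM at 1 h, and 513, 551, 599 and 619 CPM at 2 h. They were 522, 509, 533 and 428 CPM at 6 h and 438, 492, 489 and 416 CPM at 24 h. The highest value at 24 h, 492 CPM, lay just below the lowest at 0 h, 493 CPM, and at 1, 2 and 6 h the values overlapped with those at 0 h.

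The log2 change of Loxl1 at 24 h was -0.17 ± 0.075 (SE) and was not called (edgeR adjusted p = 0.0901), with a 95% interval of -0.32 to -0.03 that is not adjusted for the number of genes. At 2 h it was 0.14 ± 0.075 (adjusted p = 0.141). Without 2 h replicates 1 and 2 the change at 2 h was 0.23 (adjusted p = 0.0279), and those 2 libraries had the lower Loxl1 values of that time and the higher macrophage marker levels. That fit kept 2 libraries at 2 h, of which replicate 4, which stood apart over all genes, held the highest Loxl1 value, 619 CPM. In the 20 fits that left out 1 library, the change at 2 h was 0.096 to 0.19 and was not called (edgeR adjusted p = 0.0605 to 0.322). Loxl1 was called in the test for a change at any time (adjusted p = 0.0114). Its mean was highest at 2 h, 571 ± 47.5 CPM, and lowest at 24 h, 459 ± 37.8 CPM (SD, n = 4 each). The step at 6 h against 2 h, -0.20 ± 0.075, was close to the threshold (adjusted p = 0.0510) and was the 1 of 35 member values that fell on the other side of 0.05 in the authors' deposited table (log2 change -0.20, FDR 0.0405). All 35 had the same sign in the authors' deposited table as here.

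Loxl3 encodes an enzyme whose loss in mice disturbs the palate and the spine. It stood at 75.6, 71.5, 72.3 and 80.0 CPM at 0 h, 81.7, 74.6, 78.3 and 64.5 CPM at 1 h, and 59.8, 58.6, 66.3 and 68.7 CPM at 2 h. It stood at 66.6, 67.7, 60.4 and 68.0 CPM at 6 h and at 71.5, 73.8, 73.1 and 72.9 CPM at 24 h. The values at 2 and 6 h lay below those at 0 h with no overlap, and those at 24 h overlapped with those at 0 h.

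The log2 change of Loxl3 was -0.24 ± 0.070 at 2 h (SE, edgeR adjusted p = 0.00795), -0.19 ± 0.070 at 6 h (adjusted p = 0.0331) and -0.04 ± 0.070 at 24 h (adjusted p = 0.733). Without 2 h replicates 1 and 2, the change at 2 h was -0.15 and was no longer called (adjusted p = 0.148), and with the macrophage term it was -0.13 (adjusted p = 0.333). The call at 6 h was lost when replicate 1 (adjusted p = 0.0641) or 4 (0.110) of 0 h, or replicate 1 (0.0541) or 3 (0.118) of 6 h, was left out. The step at 2 h against 1 h was -0.24 ± 0.070 (adjusted p = 0.0194) and was lost when replicate 1 (0.104) or 3 (0.0730) of 1 h, or replicate 1 (0.0668) or 2 (0.0639) of 2 h, was left out.

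Loxl3 shares 11.6% of its exonic bases with Htra2, a gene for a mitochondrial protease on the opposite strand. Whether the counting used strand is unknown, so reads in that overlap cannot be assigned to 1 of the 2 genes. Htra2 was lower than at 0 h by -0.30 log2 at 2 h (edgeR adjusted p = 0.00785), -0.37 at 6 h (0.00132) and -0.60 at 24 h (9.39e-06). At 24 h it averaged 31.9 ± 2.45 CPM, against 48.3 ± 1.78 CPM at 0 h (SD, n = 4 each), a time at which Loxl3 was not called. Its part in the Loxl3 values was not tested.

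Loxl4, of the same branch as Loxl2, was the least abundant member, at 30.3 to 53.6 CPM over the 20 libraries. It averaged 47.8 ± 4.41, 47.4 ± 6.76, 41.8 ± 7.80, 43.8 ± 3.51 and 44.5 ± 2.54 CPM over the 5 times from 0 to 24 h (SD, n = 4 each). The values overlapped between every treated time and 0 h. Its log2 change against 0 h ranged from -0.19 ± 0.113 at 2 h (SE, edgeR adjusted p = 0.191) to -0.01 ± 0.112 at 1 h (adjusted p = 0.977), and at 24 h the 95% interval was -0.32 to 0.12. At 2 h the value rests on replicate 4, at 30.3 CPM where the other 3 libraries were at 43.9 to 47.6 CPM, and without it the change was -0.0708 (adjusted p = 0.552). A change of the size seen for Lox at 24 h lies outside that interval, while one of the size seen for Loxl3 at 2 h lies inside it.

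Set against each other within a library, the members moved to a new balance, described here as a ratio with no test. There were 52.4 to 61.0 Loxl2 reads for every 1000 Lox reads at 24 h, with a mean of 57.7 ± 3.88, against 23.2 to 24.0 at 0 h, with a mean of 23.7 ± 0.36 (SD, n = 4 each). The means at 1, 2 and 6 h were 25.7 ± 0.56, 29.2 ± 1.32 and 43.8 ± 1.53, and no 2 successive times overlapped. The ratio rose at 1 h, when neither gene was called against 0 h. At 2 h it rose further, when Lox was lower and Loxl2 was not called. The rise at 6 h came when the step of Loxl2 was called and that of Lox was not. At 24 h the ratio rose again, when the step of Loxl2 was not called and that of Lox was.

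For Loxl1 the ratio to 1000 Lox reads was 59.2 ± 5.97 at 24 h, against 37.4 ± 4.61 at 0 h (SD, n = 4 each). For Loxl3 it was 9.40 ± 0.62 at 24 h, against 5.40 ± 0.41 at 0 h, and for Loxl4 it was 5.73 ± 0.16, against 3.44 ± 0.33. All 4 other members thus gained on Lox by 24 h, of which Loxl2 was the only one called higher itself. Against Loxl1, Loxl2 stood at 979 ± 78.6 reads per 1000 at 24 h and at 641 ± 66.0 per 1000 at 0 h.

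**Figure D3:**
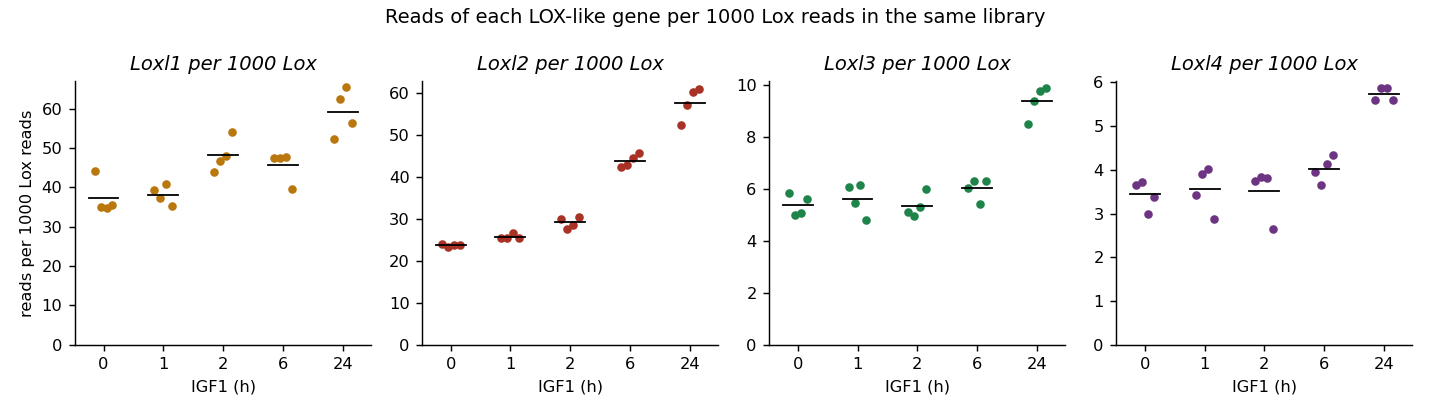
Reads of each of the 4 Lox-like members per 1000 Lox reads (vertical axes, linear) at each time of IGF1 (horizontal axis), with 1 point per library and a bar at the mean over 4 libraries. The Loxl2 ratio stood at 52.4 to 61.0 at 24 h, against 23.2 to 24.0 at 0 h.

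Levels of different genes were compared per kilobase of exon, since longer transcripts give more reads. The exonic length was 4.778 kb for Lox, 3.297 for Loxl1, 5.405 for Loxl2, 4.603 for Loxl3 and 4.213 kb for Loxl4. On this scale the order was Lox, Loxl1, Loxl2, Loxl3 and Loxl4 at all 5 times, and no neighbours in that order overlapped at any time. At 24 h the levels were 1626 ± 96.9, 139 ± 11.5, 82.7 ± 0.919, 15.8 ± 0.209 and 10.6 ± 0.604 CPM per kb in that order. At 0 h they were 2908 ± 141, 157 ± 10.9, 61.0 ± 2.57, 16.3 ± 0.836 and 11.3 ± 1.05 CPM per kb (SD, n = 4).

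The distance between neighbours narrowed at the top of the order. Lox stood at 11.7 times the level of Loxl1 at 24 h, against 18.5 times at 0 h, and Loxl1 stood at 1.68 times the level of Loxl2 at 24 h, against 2.57 times at 0 h. The share of Lox in the summed level of the 5 members was 86.7 ± 0.887% at 24 h, against 92.2 ± 0.624% at 0 h, and that of Loxl2 was 4.42%, against 1.93%. The summed level was 1874 ± 97.0 CPM per kb at 24 h, against 3153 ± 133 CPM per kb at 0 h. Most of the family's messenger RNA was therefore Lox at every time.

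**Figure D4:**
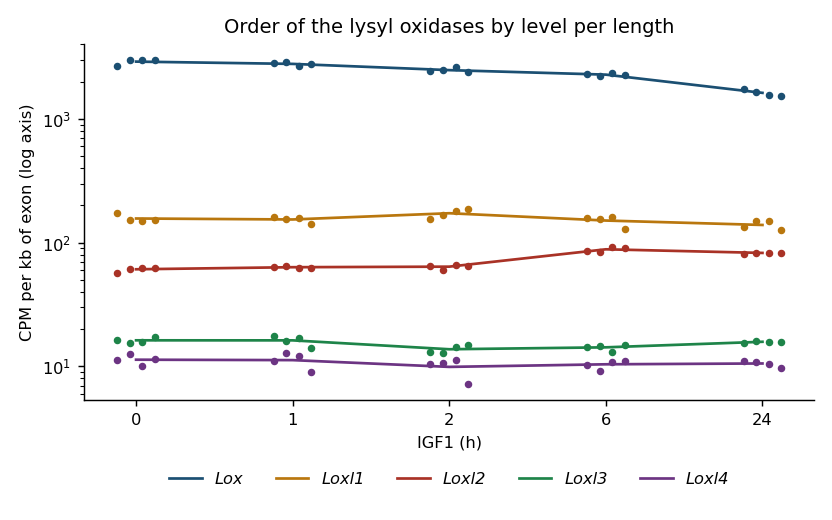
CPM per kilobase of exon of the 5 lysyl oxidases (vertical axis, log scale) at 0, 1, 2, 6 and 24 h of IGF1 (horizontal axis, times equally spaced), with 1 point per library and a line through the means over 4 libraries. The order Lox, Loxl1, Loxl2, Loxl3, Loxl4 was the same at every time, and Lox came down to 1626 CPM per kb at 24 h.

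Over the 20 libraries, log2 CPM of Lox and Loxl2 had a Pearson correlation of -0.720, Lox and Loxl1 of 0.458 and Loxl1 and Loxl2 of -0.486, where the libraries share 5 times and are not independent points. Among 10345 genes compared, those whose log2 CPM followed Lox most closely included Colec12 (r = 0.974), which encodes a scavenger receptor of the collectin family, and Prelp (0.970), which encodes a small leucine-rich proteoglycan of connective tissue. Their log2 changes at 24 h were -0.66 and -1.35. For Loxl2 the closest 3 were Ripk3 (0.950), which encodes a kinase of programmed necrosis, Mcm3 (0.945), a subunit of the replicative helicase, and Mlec (0.939), an endoplasmic reticulum lectin, with log2 changes of 1.00, 1.10 and 0.61 at 6 h.

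The correlations of the nearest genes were lower for the members that moved less. They were 0.895 for Loxl1 with Card19, 0.867 with RP23-140G16.1 and 0.858 with Ltbr. They were 0.847 for Loxl3 with Sorbs3, 0.838 with Thra and 0.837 with Col1a2, and 0.854 for Loxl4 with Tcf20, 0.852 with Tulp4 and 0.849 with Piezo1. Loxl4 and its 3 nearest genes each had their lowest value of the 20 libraries in 2 h replicate 4, and without that library the correlations were 0.692, 0.666 and 0.654. Loxl1 and its 3 nearest genes each had their highest value in that same library, and without it the correlations with Loxl1 were 0.864, 0.828 and 0.815. All of these are descriptions over libraries that share times.

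The genes around the lysyl oxidases were read in 4 groups. The first held 14 genes for proteins that cut, bind or position the enzymes and their collagens, of which 13 were tested, all but Tll2. Against 0 h, 0 of 13 were called at 1 h by edgeR or DESeq2 and 0 had an unadjusted p under 0.05. At that time edgeR called 6.75% of all genes higher and 3.88% lower. At 2 h, 5 were lower, beside 17.5% of all genes. At 6 h 1 was higher and 4 lower, beside 20.6% and 19.6% of all genes, and at 24 h 4 were higher and 5 lower, beside 12.7% and 13.2%, with a median log2 change of -0.24 at 24 h beside 0.00 for all genes. Without 2 h replicates 1 and 2 the count lower at 2 h was 3, and with the macrophage term it was 1, while without 2 h replicate 4 it was 5 with 1 higher, and the count lower at 6 h was 6.

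Thbs1, which encodes thrombospondin 1, a matrix protein known to bind Lox and its propeptide, showed the largest fall of this group. It averaged 3906 ± 150.2 CPM at 24 h, against 12900.3 ± 413 CPM at 0 h (SD, n = 4 each), a log2 change of -1.72 ± 0.0997 (SE, edgeR adjusted p = 4.16e-12). Fbln5, for fibulin 5, which brings Loxl1 to elastic fibres, stood at 388 ± 8.28 CPM at 24 h, against 625 ± 12.1 CPM at 0 h (log2 change -0.69 ± 0.072, adjusted p = 2.26e-08). Adamts14, for a protease that trims the amino propeptide of fibrillar procollagen, rose by 0.92 ± 0.106 log2 at 6 h (adjusted p = 7.74e-08) and by 0.55 ± 0.108 at 24 h (adjusted p = 3.06e-04). Adamts2, for a protease of the same activity, was lower at 2 h (-0.17, adjusted p = 0.0379) and higher at 24 h (0.19, adjusted p = 0.0300).

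Bmp1 and Postn were added to these after their values were seen. With them, all 4 genes of the group called higher at 24 h are named. Of the 5 called lower, only Thbs1 and Fbln5 are described here. Fmod, also of this group, averaged 1467 CPM at 24 h, against 2258 CPM at 0 h. Bmp1 encodes the protease that frees Lox from its propeptide, and its log2 change at 24 h was 0.28 ± 0.066 (SE, edgeR adjusted p = 0.00195). Postn encodes periostin, which binds Bmp1 in the matrix, and its log2 change at 24 h was 1.16 ± 0.294 (adjusted p = 0.00803). At the time when Lox was lowest, the transcript of its activating protease was thus slightly higher than at 0 h.

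The second group held 10 genes of copper supply, all tested. At 1 h, 2 were higher and 1 lower than at 0 h, beside 6.75% and 3.88% of all genes, and at 2 h 5 were higher and 1 lower, beside 20.2% and 17.5%. At 6 h 5 were higher and 1 lower, beside 20.6% and 19.6%, and at 24 h 3 were higher and none lower, beside 12.7% and 13.2%. Slc31a1, for the main copper importer of the cell surface, was higher at 2, 6 and 24 h, with log2 changes of 0.30, 0.49 and 0.31, and averaged 89.8 ± 4.91 CPM at 24 h, against 72.2 ± 3.43 CPM at 0 h (SD, n = 4 each). Slc31a2, for a related protein that acts on copper stores within the cell, was lower at 1, 2 and 6 h, with log2 changes of -0.27, -0.71 and -0.43, and its change at 24 h, 0.14, was not called (edgeR adjusted p = 0.189).

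Of the 2 metallothionein genes, whose products bind copper and zinc, Mt1 was higher at each treated time, with log2 changes of 0.41, 0.91, 0.62 and 0.30 at 1, 2, 6 and 24 h. Mt2 was higher at 1, 2 and 6 h, by 0.39, 0.84 and 0.37, and at 24 h its change of 0.34 was not called (edgeR adjusted p = 0.0503). Mt2 shares 73.5% of its exonic bases with an opposite-strand gene model, Gm45774, so its reads are not certain to be its own. Atp7a, the pump that loads copper onto secreted enzymes, was named after its values were seen: its log2 changes against 0 h were 0.20, -0.04, 0.17 and 0.42 for the treated times in order, and none of these was called. At 2 h Atp7a was at 7.63 CPM in replicate 4 and at 23.6 to 29.2 CPM in the other 3 libraries, against 21.1 to 23.2 CPM at 0 h, so the sign of that value rests on 1 library. With the macrophage term the counts higher were 1 at 1 h and 3 at 2 h, and without 2 h replicates 1 and 2, or without replicate 4, the count higher at 24 h was 5.

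The third group held 6 genes for the hydroxylation and glycosylation of lysines in collagen, the step before cross-linking, of which 5 were tested, all but Colgalt2. At 1 h edgeR called 0 of 5 and DESeq2 called 1, with 2 at an unadjusted p under 0.05 by either tool. The edgeR shares of all genes were then 6.75% higher and 3.88% lower. At 2 h, 1 was higher and 2 lower, beside 20.2% and 17.5% of all genes, at 6 h 2 were higher, beside 20.6%, and at 24 h 1 was higher, beside 12.7%. Plod2, for the lysyl hydroxylase of collagen telopeptides, the sites that lysyl oxidases act on, averaged 215 ± 6.01 CPM at 6 h, against 99.4 ± 7.15 CPM at 0 h (SD, n = 4 each), a log2 change of 1.11 ± 0.080 (SE, edgeR adjusted p = 1.49e-11). At 2 h it already averaged 139 ± 22.2 CPM, and its values, 123 to 171 CPM, lay above those at 0 h, 93.4 to 109 CPM. At 24 h it was at 93.6 ± 2.33 CPM and was not called (-0.09, adjusted p = 0.469).

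Plod2 and Loxl2 were thus both called higher at 6 h, and at 24 h Loxl2 was called higher and Plod2 was not. Their courses also differed at 2 h, when Plod2 already stood above its 0 h values and Loxl2 was not called. Plod1, for the hydroxylase of the collagen helix, had log2 changes of -0.16, 0.14 and 0.19 at 2, 6 and 24 h (edgeR adjusted p = 0.0121, 0.0284 and 0.00564). Colgalt1, for a galactosyltransferase of hydroxylysine, was lower at 2 h (-0.22, adjusted p = 0.0049). Fkbp10, for a chaperone of telopeptide hydroxylation, was called at no time against 0 h. For the group, the count lower at 2 h was 1 without 2 h replicates 1 and 2 and 0 with the macrophage term, and the count higher at 24 h was 2 without those libraries. Without 2 h replicate 4 the counts lower were 4 at 2 h and 1 at 24 h.

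The fourth group held the genes of the substrates, 9 fibrillar collagen chains and elastin, and all 10 were tested. At 1 h 0 of 10 were called by edgeR or DESeq2, with 0 at an unadjusted p under 0.05. Of all genes, edgeR then called 6.75% higher and 3.88% lower. At 2 h 1 was higher and 4 lower, beside 20.2% and 17.5% of all genes. At 6 h 2 were higher and 4 lower, beside 20.6% and 19.6%, and at 24 h 3 were higher and 1 lower, beside 12.7% and 13.2%. Col3a1, for the chain of collagen III, averaged 5337 ± 79.8 CPM at 24 h, against 2283 ± 35.9 CPM at 0 h (SD, n = 4 each), a log2 change of 1.22 ± 0.083 (SE, edgeR adjusted p = 9.24e-12). Col5a3, for a minor chain of collagen V, had log2 changes of 1.03, 1.54 and 1.75 at 2, 6 and 24 h, and it ranged from 22.9 to 71.8 CPM among the 2 h libraries.

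Col5a2, for a major chain of collagen V, was lower at 2, 6 and 24 h, with log2 changes of -0.32, -0.42 and -0.62. Col1a2, for a chain of collagen I, the main collagen of tendon, was lower at 2 h (-0.43, edgeR adjusted p = 0.000422) and at 6 h (-0.30, adjusted p = 0.00803), and its change at 24 h, -0.05, was not called (adjusted p = 0.718). At 24 h the Lox transcript was therefore at 0.559 of its 0 h level in the libraries in which the Col3a1 transcript was higher. At 2 h the counts were 2 higher without 2 h replicates 1 and 2, and 0 higher and 1 lower with the macrophage term.

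**Figure D5:**
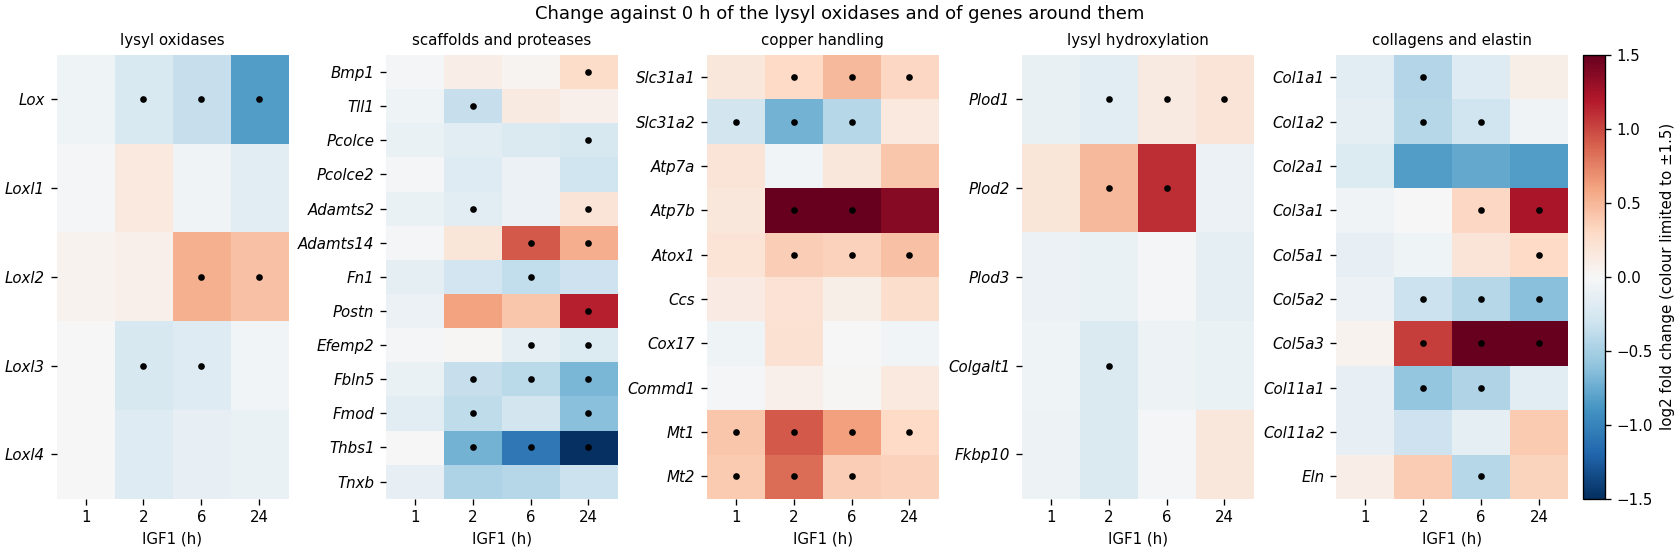
Log2 fold change against 0 h of the genes of each list (rows) at 1, 2, 6 and 24 h of IGF1 (columns), with the colour scale limited to 1.5 on either side of 0. A dot marks an edgeR adjusted p under 0.05, and Thbs1 at -1.72 and Col3a1 at 1.22 at 24 h are among the marked cells.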

How the data were processed

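The authors deposited raw read counts per gene, whole numbers for 29986 genes in 20 libraries, and a table of their own comparisons by edgeR, which per the file headers holds a log2 fold change, a p-value and an FDR for each gene and comparison. Reads went through FastQC and STAR, with mm10 as the build, per the submitters' processing notes. Which tool counted them, on which annotation and strand, and at what read length is not given in the sources used here.

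Deposited counts were used unchanged in edgeR 4.0.16 (R 4.3.3). The filterByExpr filter kept 14420 genes with 99.9% of counts. TMM scaling and 1 robust quasi-likelihood fit of all 20 libraries without covariates gave 4 contrasts against 0 h, 3 steps and a test of any change, and p-values were adjusted by Benjamini-Hochberg over all tested genes. The steps from counts to calls were run on simulated counts as a check of the code only. That simulation had the same relative spread for every gene and no library that stood apart, unlike these data. It therefore cannot show how reliable the calls are here. Per-library levels use log2 CPM with a prior count of 2 for correlations. DESeq2 1.42.0, other filters and scaling, the replicate number as a block, the macrophage marker level as a term, fits of 8 libraries and fits with libraries left out were alternatives. Leaving out 2 h replicate 4 for the gene lists and correlations was added after the data were seen, as were the list counts without 2 h replicates 1 and 2 and with the macrophage term.

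Positions, exonic lengths and overlaps came from GENCODE M21, and lengths are of all exons of a gene merged. Colgalt1, Fkbp10, Plod2, Thra and Piezo1 also share exonic bases with opposite-strand genes (11.4, 6.58, 6.42, 5.70 and 24.6%). The description of 0 h replicate 2 repeats that of 0 h replicate 1, but their counts differed beyond sampling noise (chi-square per degree of freedom 8.60, where pairs within a time ranged from 2.88 to 52.5, the highest of them with 2 h replicate 4), so they were kept as 2 libraries.

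Members and gene lists were chosen with earlier results of these data known. Named were the 5 members, in each of 4 lists the 4 genes with the smallest adjusted p for any change and a mean of at least 5 CPM at some time, and the 3 genes most correlated with each member, of which 1 is not reported here. Proteins and promoters were not used here.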

Additional observations from a re-analysis of the deposited data

Results flagged for a closer look

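Of 25 groups of 4 libraries (5 members at 5 times), 3 had 1 library far from the other 3, where chance alone marks about 1 in 20 groups. Lox in 0 h replicate 1 was at 12882 CPM, below the other 0 h libraries at 14189.5 to 14269.7 CPM. Loxl1 in the same library was at 571 CPM, above the others at 493 to 506 CPM. Loxl2 in 24 h replicate 1 was at 439 CPM, below the others at 449 to 449.7 CPM.

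Without 0 h replicate 1, the log2 change of Lox against 0 h was -0.26 at 2 h, -0.38 at 6 h and -0.87 at 24 h, each still called by edgeR. At 1 h it was -0.11, against -0.06 with all libraries, and Loxl2 was 0.017 at 1 h and 0.042 at 2 h, against 0.06 and 0.07 with all libraries, none of them called. That of Loxl1 at 24 h was -0.12 (adjusted p = 0.303), against -0.17 with all libraries. Without 24 h replicate 1, the change of Loxl2 at 24 h was 0.45 (adjusted p = 6.46e-07).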

How the results depend on the processing

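The changes of Lox at 6 and 24 h, those of Loxl2 at 6 and 24 h, and the steps of Loxl2 at 6 h against 2 h and of Lox at 24 h against 6 h kept direction and call under every alternative run. Other calls moved, and the cause was not tested. In the fit with a macrophage marker term, Lox at 2 h was -0.18 (adjusted p = 0.0531), Loxl3 at 2 h -0.13, Lox at 2 h against 1 h -0.13 and Loxl3 there -0.15, none of them called, and Loxl1 at 6 h against 2 h was called at -0.25. The counts of members called were then 0 at 2 h against 0 h, 0 at 2 h against 1 h and 2 at 6 h against 2 h, while the genes called over all genes were 3219, 1193 and 2732 with that term and 5443, 2357 and 3944 without it. That term also gave uncalled values of opposite sign for Loxl3 (0.026 at 1 h, -0.0439 at 6 h against 2 h) and for Loxl4 (0.014 at 1 h, -0.0254 at 6 h against 2 h, -0.00935 at 24 h against 6 h).

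Without 2 h replicates 1 and 2, Loxl3 was -0.15 at 2 h and -0.14 against 1 h, Lox was -0.15 against 1 h, none called, and Loxl3 at 6 h against 2 h was -0.0347. Loxl1 was then called at 2 h (0.23), against 1 h (0.27) and at 6 h against 2 h (-0.28), and the members called were 1 at 2 h against 1 h and 2 at 6 h against 2 h. Over all genes, 2431 and 3764 of 14950 were then called at these steps. Fits of only the 8 libraries compared lost Lox (-0.16) and Loxl3 (-0.23) at 2 h against 1 h, leaving 0 members, and called Loxl1 at 24 h (-0.17) and, at 24 h against 6 h, Loxl2 (-0.0946) and Loxl3 (0.15), making 3. These fits called 776 of 13634 genes at 2 h against 1 h and 6667 of 13506 at 24 h against 6 h. With all 20 libraries in the fit, 2357 and 5166 of 14420 were called. With no count filter, Lox at 2 h against 1 h (-0.16, leaving 1 member) and Loxl3 at 6 h (-0.19, adjusted p = 0.0889) were not called. Of 29986 genes, 2562 and 5534 were called in these 2 comparisons. At 6 h against 2 h Loxl1 was called at -0.20 with DESeq2, RLE scaling and the CPM filter, and DESeq2 also called Lox (-0.12), so that 3, 2 and 2 members were called. Over all genes these called 4161 of 14420, 3944 of 14420 and 3952 of 13227.

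With the replicate number as a block, Loxl1 at 6 h against 2 h was called (-0.20, adjusted p = 0.0456), making 2 members, Loxl3 at 1 h was 0.000114, and no other call of a member changed. Over all genes, 3857 of 14420 were called at 6 h against 2 h in that fit. No pairing by number was seen in the counts: of 40 same-numbered pairs 1 correlated over 0.1 (range -0.170 to 0.126), and 3 of 20 libraries correlated best with their own number. Whether same-numbered libraries shared an animal or culture cannot be told from this, and the labels do not give it.

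Leaving out 1 library at a time gave, at 2 h against 1 h, -0.18 to -0.14 for Lox, 0.13 to 0.23 for Loxl1 (called without 2 h replicate 1) and -0.30 to -0.19 for Loxl3, and 0 to 2 members called. At 6 h against 2 h it gave -0.13 to -0.0966 for Lox (called without 2 h replicate 4), -0.24 to -0.13 for Loxl1 (called without 0 h replicate 1, 2 h replicates 1 or 2, or 6 h replicate 3) and -0.0509 to 0.14 for Loxl4, and 1 to 2 members. At 24 h against 6 h it gave 0.11 to 0.17 for Loxl3 (called without 2 h replicate 4) and -0.0267 to 0.0578 for Loxl4, and 1 to 2 members. At 6 h Loxl3 ranged from -0.21 to -0.15 and Loxl1 from -0.0892 to 0.0146, with 2 to 3 members called. These fits tested 14616 to 14676 genes and called 1607 to 2739 of them at 2 h against 1 h. They called 3157 to 4555 at 6 h against 2 h, 4421 to 6037 at 24 h against 6 h and 5117 to 6634 at 6 h. At 1 h Loxl1 ranged from -0.0613 to 0.0138, Loxl3 from -0.0567 to 0.0639 and Loxl4 from -0.0831 to 0.0784. Without 2 h replicate 4, Loxl4 was -0.0708 at 2 h and -0.0488 at 2 h against 1 h, and 6634 genes were called at 6 h, where 5797 were called with all libraries. Loxl4 had the fewest reads and the largest SE of the members, and its SE at 6 h against 2 h was 0.0864 without that library and 0.113 with it.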

Other observations

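The other copper amine oxidases, which use a related quinone cofactor but act on free amines, were measured beside the family. Of 3 such genes 2 were tested, Aoc2 and Aoc3, and both were far below the lysyl oxidases in level. Aoc2 averaged 1.23 ± 0.384, 3.52 ± 0.797, 3.69 ± 0.574, 2.38 ± 0.285 and 1.37 ± 0.284 CPM over the 5 times from 0 to 24 h (SD, n = 4 each). It was called higher at 1, 2 and 6 h, with log2 changes of 1.49 ± 0.237, 1.56 ± 0.236 and 0.94 ± 0.242 (SE, edgeR adjusted p = 5.26e-05, 7.13e-06 and 0.0026), and not at 24 h (0.15, adjusted p = 0.735). Aoc3 was called at no time. Aoc2 was thus already higher at 1 h, when 0 of 5 lysyl oxidases were called.

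Atp7b, for a copper pump best known from liver, was called higher at 2 and 6 h but averaged no more than 1.06 ± 0.237 CPM, at 6 h, against 0.0627 ± 0.0466 CPM at 0 h (SD, n = 4 each). It was named after its values were seen.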
